A study of Mus musculus with 6 samples.

Results

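A set of 10 genes known to be induced by hypoxia-inducible factor (HIF) outside the glycolytic pathway was followed in mouse CD8+ T cells exposed to sphingosine-1-phosphate (S1P), a signalling lipid sensed by the S1PR family of G protein-coupled receptors. The 10 genes are Vegfa, Ndrg1, Adm, Ankrd37, Mxi1, Bhlhe40, Ero1a, Hilpda, Higd1a and Fam162a, of 56941 genes in the count table. They were selected on prior knowledge of HIF targets with the S1P-to-vehicle difference of these same samples already known, so their differences between the groups are given as a description, without a p-value, and support nothing. All 10 were found in the table by their GENCODE symbols and all 10 were among the 13299 genes with enough counts for a fit, Adm through its S1P-treated samples, since 1 of its 3 vehicle-treated samples reached the minimum.

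The labels describe the samples as naive CD8+ T cells purified from the spleens of B6 mice, while the methods of the study name either naive T cells or whole splenocytes as the starting cells. Activation lasted 3 days, with plate-bound antibodies to CD3 and CD28 in the presence of IL-2 at 100 U/ml. S1P at 5 µM was added to 3 cultures 24 h after activation, and 3 cultures received vehicle at that time. The labels call the samples biological replicates and do not say whether a replicate was 1 mouse or a pool. The labels give no oxygen level for the cultures.

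HIF is a transcription factor made of an oxygen-regulated alpha subunit (HIF-1α or HIF-2α) and the constant partner ARNT. In oxygen the prolyl hydroxylases mark the alpha subunit for degradation through VHL, and when it escapes degradation the dimer binds a short core, ACGTG or GCGTG, near its target genes. Activated T cells also accumulate HIF-1α when oxygen is plentiful, downstream of the T cell receptor and mTOR. Besides glycolysis, its targets serve blood vessel growth, redox folding of proteins, lipid storage, mitochondrial adaptation and feedback on transcription.

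The cores were searched in the RefSeq promoter windows of the genes (build GRCm38.p6), each from 250 bases before to 50 bases after an annotated start site. ACGTG and GCGTG were searched on both strands. ACGTG is also the greater part of the E-box CACGTG, which MYC, MAX and BHLHE40 bind, so a match does not name the factor. Windows were found for 8 of the genes, and none for Ndrg1 and Bhlhe40. Each of the 8 genes had at least 1 match, as had 46.7% of all genes in the table, in 10 of their 12 windows, and 7 of the 12 windows held at least 2 matches. The windows are not all separate: both Hilpda windows overlap and share 1 match, and a pair of Mxi1 windows overlap. Of all 32851 windows in the table, 43.8% held a match and 20.6% at least 2, without matching on base composition. The stretches just before the start sites of Adm, Higd1a, Ero1a and Fam162a are shown because these genes have a single window each, with at least 2 matches in the 150 bases before the start. They read 5′ to 3′ on the strand of the gene and end 1 base before the start site, with each match in capitals. A match on the opposite strand reads CACGT or CACGC.
Adm, chr7:110627547-110627656, plus strand: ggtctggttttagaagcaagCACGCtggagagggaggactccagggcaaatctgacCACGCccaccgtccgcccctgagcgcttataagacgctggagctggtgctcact
Higd1a, chr9:121857797-121857886, minus strand: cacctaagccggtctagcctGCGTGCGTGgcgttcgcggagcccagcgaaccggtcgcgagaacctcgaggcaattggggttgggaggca
Ero1a, chr14:45318573-45318722, minus strand: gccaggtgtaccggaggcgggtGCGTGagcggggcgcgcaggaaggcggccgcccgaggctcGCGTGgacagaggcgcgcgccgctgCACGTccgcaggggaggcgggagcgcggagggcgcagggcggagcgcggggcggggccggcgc
Fam162a, chr16:36071562-36071661, minus strand: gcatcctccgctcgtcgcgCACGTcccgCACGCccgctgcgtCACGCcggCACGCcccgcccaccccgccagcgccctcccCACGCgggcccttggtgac
Fam162a had 5 matches in the 100 bases shown, and the pair in Higd1a overlaps by the shared G of GCGTGCGTG. The map of all windows also shows the start sites of Vegfa and Mxi1 that had no match, which says only that these letters are absent from those windows.

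**Figure D1:**
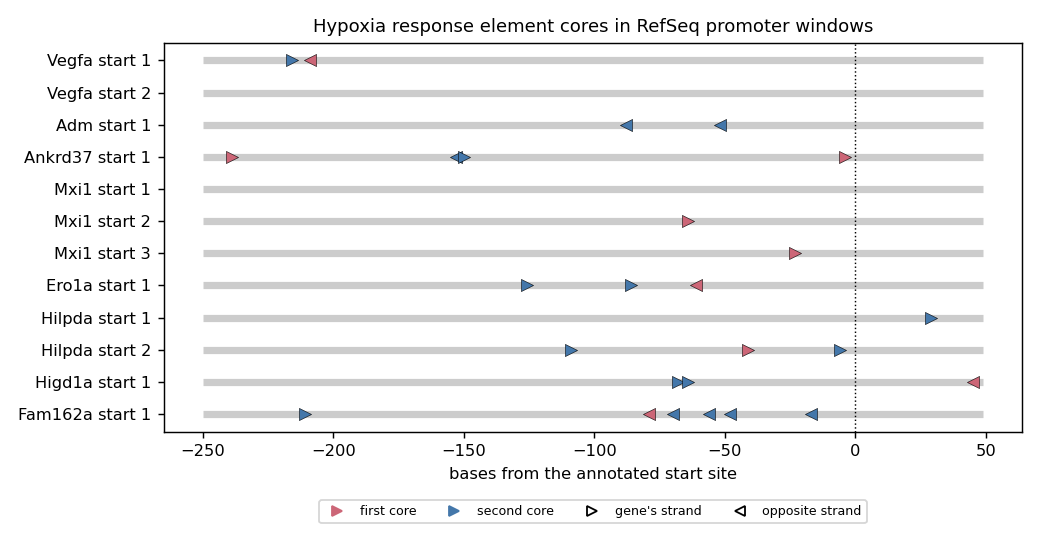
Each grey bar is 1 RefSeq promoter window of a gene, drawn by distance in bases from its annotated start site (dotted line). Triangles mark the cores ACGTG (red, first core) and GCGTG (blue, second core) and point right on the strand of the gene and left on the opposite strand, and 10 of the 12 windows hold at least 1.

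The 3 vehicle-treated libraries held between 13636095 and 17089831 counts, and the 3 S1P-treated libraries between 12048880 and 17384084. S1P-treated replicate 2 stood apart, with 7.80% of its counts on mitochondrially encoded genes against 4.10% to 4.93% in the other 5 samples. The defining markers of the labelled cells were present, with Cd8a at 222 ± 24.9 (SD, n = 3) CPM (counts relative to the TMM-scaled library size) in vehicle-treated and 139 ± 6.59 (SD, n = 3) in S1P-treated cells. Both Cd8a (log2FC -0.67, edgeR adjusted p = 0.000243) and Cd8b1 (log2FC -0.55, edgeR adjusted p = 0.00767) fell with S1P, and the part of this in the other differences was not tested. The other 6 of the 8 markers listed for CD8 T cells are genes of T cells in general, CD4 T cells included. They were not called, with log2FC values from -0.30 (Thy1) to 0.15 (Cd3e). Of these, Cd3d (log2FC -0.28, edgeR adjusted p = 0.0129) and Cd3g (log2FC -0.21, edgeR adjusted p = 0.0444) missed only the log2FC threshold. The 8 markers together took 1778 to 2039 CPM in vehicle-treated and 1574 to 1741 CPM in S1P-treated samples. This sum is not a measure of CD8+ T cells alone. Cd4 was also present at 203 ± 18.4 and 218 ± 31.6 CPM (SD, n = 3 each) and was not called. Of the other CD4 T cell markers, Cd40lg (log2FC 0.50, edgeR adjusted p = 0.0134) and Zbtb7b (log2FC 0.37, edgeR adjusted p = 0.00886) rose and Foxp3 was not called, and the part of these in the other differences was not tested either. The 8 B cell markers together took 1093 to 1334 CPM in vehicle-treated and 1155 to 1259 CPM in S1P-treated samples. Among them Ebf1 was called higher (log2FC 0.60) and Ms4a1 and Cd22 lower (log2FC -0.39 and -0.44). Of 9 myeloid markers, 7 had too few counts for a test, among them Lyz2, Csf1r and Adgre1, while Mpeg1 (88.5 CPM with vehicle and 99.6 CPM with S1P) and Cd68 (3.22 and 3.49 CPM) were tested and not called. Of the 8 endothelial and stromal markers, Pecam1 (71.8 and 81.7 CPM) and Pdgfrb (0.527 and 0.948 CPM) were tested and not called, and 6 had too few counts. Markers of CD4 T cells and B cells were thus present beside those of the labelled CD8+ T cells. Which cells carried the differences described below was not tested. In bulk samples fewer cells of a type and less RNA per cell cannot be told apart.

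All 10 genes were higher in S1P-treated cells, by 1.51-fold for Higd1a to 4.88-fold for Ndrg1, with a median log2 fold change (log2FC) of 1.34 against 0.01 over all tested genes. The 3 S1P-treated samples were above the 3 vehicle-treated samples for each of the 10, as for 23.0% of all tested genes. A gene counted as called when its edgeR adjusted p was within 0.05 and its log2FC was 0.3 or more in either direction, the thresholds of the study. All 10 were called higher, as were 12.7% of all tested genes, and 8 of them had a log2FC of 1 or more, a size at which 2.88% of all tested genes were called. Nothing is read from these counts, since the genes were chosen by this difference. Without S1P-treated replicate 2 the median log2FC of the 10 was 1.36 and the 10 calls were unchanged.

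**Figure D2:**
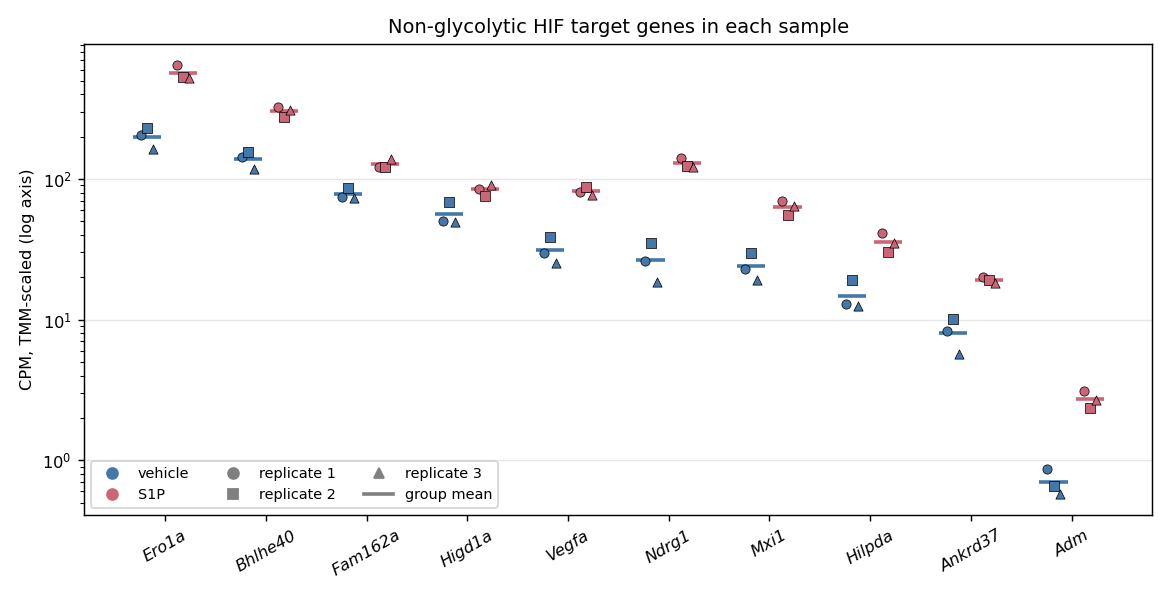
CPM (TMM-scaled, log axis) of each gene in the 3 vehicle-treated (blue) and 3 S1P-treated (red) samples, with a bar at each group mean and a marker shape for each replicate number. The groups are apart for all 10 genes, most widely for Ndrg1 and least for Higd1a.

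Vegfa (ENSMUSG00000023951, chr17:46327919-46343309 of GRCm39) and Adm (ENSMUSG00000030790, chr7:110226858-110229027 of GRCm39) encode secreted signals. VEGF-A drives the growth of blood vessels, and adrenomedullin is a peptide that widens vessels and acts through the receptor CALCRL with a RAMP partner. Vegfa was at 29.7, 38.4 and 25.1 CPM in vehicle-treated replicates 1, 2 and 3 and at 80.5, 88.4 and 76.7 CPM in the S1P-treated ones. Its lowest S1P-treated sample was 2.00 times its highest vehicle-treated sample, and its log2FC was 1.40 (standard error, SE, 0.13). Adm had the fewest counts of the 10, with 15, 9 and 9 counts in vehicle-treated and 55, 27 and 34 counts in S1P-treated samples, which leaves its log2FC of 1.94 the least precise (SE 0.28). In the annotation, 31.9% of the exon bases of Adm lie under a gene of the opposite strand.

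The receptors of these signals were looked up in a list of 26 direct partners of the 10 genes, of which 20 were tested. Calcrl rose from 25.5 ± 2.39 to 43.8 ± 1.72 CPM (SD, n = 3 each), a log2FC of 0.77 (SE 0.09, edgeR adjusted p = 0.000137). Ramp3, which makes CALCRL an adrenomedullin receptor, had 6, 9 and 3 counts in vehicle-treated and 42, 20 and 17 counts in S1P-treated samples. Like Adm, Ramp3 had enough counts for a fit only through its S1P-treated samples, so its difference is given without a test. Ramp1 had a log2FC of 0.24 (edgeR adjusted p = 0.395). The VEGF-A receptors Flt1 and Kdr had too few counts for a test in these cells, and the co-receptor Nrp1 had a log2FC of -0.30 (edgeR adjusted p = 0.125). Among family relatives, Vegfb had a log2FC of 0.35 and was not called (edgeR adjusted p = 0.0743) except without S1P-treated replicate 2 (log2FC 0.42, edgeR adjusted p = 0.0313), and Vegfc, Vegfd, Pgf and Adm2 had too few counts.

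Ero1a (ENSMUSG00000021831, chr14:45520541-45556228 of GRCm39) encodes the oxidase of the endoplasmic reticulum that reoxidizes protein disulfide isomerase, so that secreted proteins can form disulfide bonds. It was at 207, 232 and 162 CPM in vehicle-treated and at 642, 529.7 and 525 CPM in S1P-treated replicates, and its level per kilobase of exon was the highest of the 10 in both groups. The fold change was 2.83 (log2 1.50, SE 0.12). Its paralog Ero1b went from 39.5 ± 4.42 to 43.7 ± 7.79 CPM (SD, n = 3 each) and was not called (edgeR adjusted p = 0.391). Of the isomerases that ERO1 serves, P4hb rose by a log2FC of 0.37 (edgeR adjusted p = 0.00808) but was not called once vehicle-treated replicate 3 was left out (log2FC 0.31, edgeR adjusted p = 0.0551). Pdia3, Pdia4 and Pdia6 had log2FC values of -0.23, -0.09 and -0.19 and were not called, though Pdia3 passed without S1P-treated replicate 2 (log2FC -0.30, edgeR adjusted p = 0.00175).

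Mxi1 (ENSMUSG00000025025, chr19:53298852-53364241 of GRCm39) and Bhlhe40 (ENSMUSG00000030103, chr6:108636626-108644502 of GRCm39) encode transcriptional repressors of the basic helix-loop-helix family. MXI1 pairs with MAX and opposes MYC at its target genes, and BHLHE40 binds E-boxes and is needed for cytokine production by several kinds of T cell. Mxi1 was at 22.8, 29.8 and 19.1 CPM with vehicle and at 69.9, 55.4 and 64.1 CPM with S1P, a log2FC of 1.41 (SE 0.14). Bhlhe40 was at 144, 156 and 118 CPM with vehicle and at 323, 276 and 308 CPM with S1P, a log2FC of 1.12 (SE 0.10). The groups stayed apart for both genes, with the lowest S1P-treated sample 1.86 and 1.77 times the highest vehicle-treated one. Of the relatives of Mxi1, Mxd1 rose from 20.7 ± 0.901 to 37.0 ± 4.54 CPM (SD, n = 3 each; log2FC 0.84, edgeR adjusted p = 0.000201). Mxd4 rose by a log2FC of 0.37 (edgeR adjusted p = 0.0249), a call that was lost in 5 of the 6 fits without 1 library and with DESeq2 (adjusted p = 0.0541). Myc, Max and Mnt had log2FC values of 0.14, 0.21 and 0.09 and were not called. Bhlhe41, the paralog of Bhlhe40, had a log2FC of 0.03 (edgeR adjusted p = 0.95).

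Ndrg1 (ENSMUSG00000005125, chr15:66801166-66841835 of GRCm39), a stress-induced gene whose product has been linked to T cell anergy, differed most among the 10. It was at 26.1, 35.1 and 18.6 CPM with vehicle and at 141, 124 and 122 CPM with S1P, and its lowest S1P-treated sample was 3.47 times its highest vehicle-treated one. Its log2FC of 2.29 (SE 0.17) ranked 41 of the 13299 tested genes. Of its relatives, Ndrg2 rose from 20.5 ± 5.44 to 55.8 ± 1.01 CPM (SD, n = 3 each; log2FC 1.45, edgeR adjusted p = 6.24e-05), while Ndrg3 was at 65.5 ± 1.38 and 66.4 ± 2.77 CPM (log2FC 0.02, edgeR adjusted p = 0.867). Ndrg4 had too few counts for a test.

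Hilpda (ENSMUSG00000043421, chr6:29272409-29276301 of GRCm39) encodes a small lipid droplet protein that inhibits the triglyceride lipase ATGL. It was at 12.9, 19.0 and 12.5 CPM with vehicle and at 41.1, 30.4 and 34.8 CPM with S1P, a log2FC of 1.28 (SE 0.16). Its S1P-treated samples spread more than those of any other of the 10, with a coefficient of variation of 15.3%. Neither Pnpla2, which encodes ATGL, nor its co-activator gene Abhd5 nor the lipid droplet coat gene Plin2 was called, with log2FC values of -0.16, -0.25 and 0.06.

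Higd1a (ENSMUSG00000038412, chr9:121677622-121687428 of GRCm39) and Fam162a (ENSMUSG00000003955, chr16:35863243-35892123 of GRCm39) encode mitochondrial membrane proteins, the first a partner of respiratory chain complexes and the second linked to cell death in hypoxia. They had the smallest fold changes of the 10. Higd1a was at 50.0, 68.6 and 49.8 CPM with vehicle and at 85.2, 76.1 and 91.3 CPM with S1P, and its lowest S1P-treated sample was 1.11 times its highest vehicle-treated one. Fam162a was at 73.8, 86.9 and 73.6 CPM with vehicle and at 121, 122 and 139 CPM with S1P. The log2FC values were 0.59 (SE 0.12) and 0.70 (SE 0.09). Higd2a, the only other tested gene of these families, had a log2FC of 0.09 (edgeR adjusted p = 0.593).

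Ankrd37 (ENSMUSG00000050914, chr8:46449939-46458744 of GRCm39) encodes a small protein of ankyrin repeats. It was at 8.24, 10.0 and 5.66 CPM with vehicle and at 20.1, 19.0 and 18.1 CPM with S1P, a log2FC of 1.27 (SE 0.17). In the annotation 81.4% of its exon bases lie under genes of the opposite strand, and the strand setting of the counting is not given in the sources used here, so its counts are uncertain. One of these genes, Ufsp2, went from 37.5 to 59.0 CPM on average (log2FC 0.65, edgeR adjusted p = 0.000688), and the other, Lrp2bp, was at 2.23 and 2.17 CPM. For Fam162a the overlap was 32.1%, under Mix23 and Wdr5b, and for Higd1a it was 19.4%. Of these 2 genes over Fam162a, Mix23 rose by a log2FC of 0.45 (edgeR adjusted p = 0.00431).

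**Figure D3:**
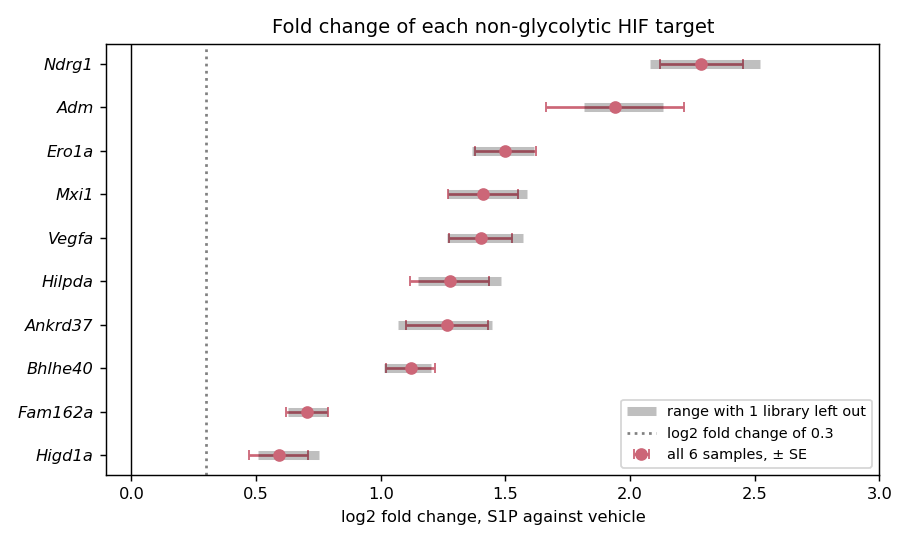
Points are log2FC values of S1P-treated against vehicle-treated cells from the fit on all 6 samples, with bars of 1 SE. Grey bands span the 6 fits that each left out 1 library, and the dotted line marks the log2FC of 0.3. The lowest band, that of Higd1a, begins at 0.51.

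The 10 genes shared an order among the vehicle-treated samples, and the order itself uses no S1P-treated sample. Adm, however, was tested only through its S1P-treated samples, as were 3 of the 40 other non-glycolytic HIF targets. The place of Adm rests on few counts, 9 in each of vehicle-treated replicates 2 and 3. Replicate 3 had the lowest CPM of the 3 for all 10 genes, against 34.5% of all tested genes. For Hilpda, Higd1a and Fam162a it was close to replicate 1, at 12.5 against 12.9, 49.8 against 50.0 and 73.6 against 73.8 CPM. Replicate 2 had the highest for 9 of the 10, Adm being the exception, against 34.1% of all tested genes. Both held for 9 of the 10 genes and for 17.9% of all tested genes. The log2 ratio of replicate 2 to replicate 3 ran from 0.19 for Adm to 0.92 for Ndrg1, with a median of 0.56 against 0.0027 over all tested genes. The same order was seen in 19 of 20 glycolytic HIF targets (median log2 ratio 0.34) and in 25 of 40 other non-glycolytic HIF targets (median 0.40). Genes of 1 pathway in the same 3 libraries are not independent, and no test was made of this pattern.

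The coefficient of variation was larger among vehicle-treated than among S1P-treated samples for all 10 genes, as it was for 33.8% of all tested genes. Its median over the 10 was 21.4% with vehicle and 8.59% with S1P, while the medians over all tested genes were 6.92% and 10.7%. The vehicle-treated samples also had the larger coefficient in 29 of 40 other non-glycolytic and 15 of 20 glycolytic HIF targets, so the trait was not particular to the 10. Ndrg1 had the widest spread with vehicle, 31.1%, and Ankrd37 the narrowest with S1P, 5.12%. Among S1P-treated samples replicate 1 was highest for 7 of the 10, against 34.95% of all tested genes, replicate 3 for Higd1a and Fam162a and replicate 2 for Vegfa. Replicate 2 was lowest for 5 of the 10, against 40.0% of all tested genes.

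Markers of other cells also differed among the vehicle-treated samples. All 8 B cell markers were lowest in vehicle-treated replicate 2, as were 3 of 4 CD4 T cell markers and both tested myeloid markers, against 33.8% of all tested genes. The B cell sum was 1093 CPM in replicate 2 against 1334 and 1332 CPM in replicates 1 and 3. The sum of the 8 markers listed for CD8 T cells, most of them genes of T cells in general, was highest in replicate 2. It was 2039 CPM there against 1778 and 1852 CPM. Cd8a alone was at 251 CPM in replicate 2 against 208 and 207 CPM, and Cd8b1 at 146 CPM against 103 and 102 CPM. The part of cell makeup in the spread was not tested. The spread also set how much a single library weighed in the fold changes: without vehicle-treated replicate 3 the median log2FC of the 10 genes was 1.22 and without vehicle-treated replicate 2 it was 1.53.

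**Figure D4:**
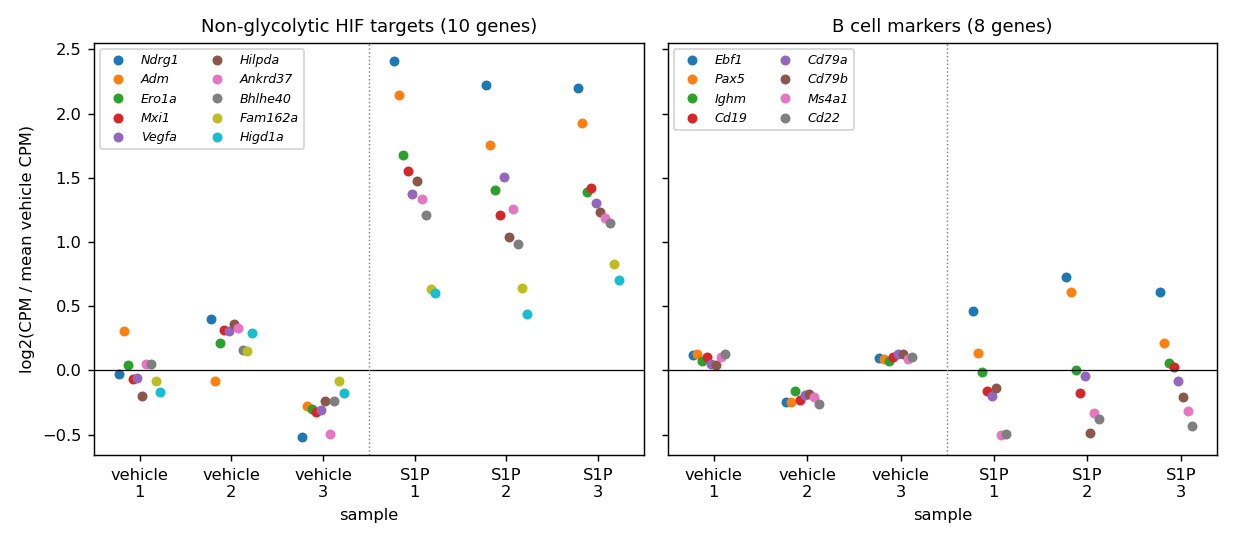
Log2 of the CPM in each sample over the mean CPM of the vehicle-treated samples, for the 10 genes (left) and 8 B cell markers (right), with 1 point per gene and sample. Among vehicle-treated samples the 10 genes are lowest in replicate 3, by a small margin for Hilpda, Higd1a and Fam162a. The B cell markers are lowest in replicate 2.

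Compared per kilobase of exon, the 10 genes spanned a wide range of levels. In vehicle-treated cells the mean level ran from 0.430 ± 0.0905 CPM per kb for Adm to 37.6 ± 6.61 CPM per kb for Ero1a (SD, n = 3). Ero1a was at percentile 93.3 of all tested genes and Adm at percentile 12.9. The order in vehicle-treated cells was Ero1a, Bhlhe40, Fam162a, Higd1a, Vegfa, Hilpda, Ankrd37, Ndrg1, Mxi1 and Adm. Bhlhe40 and Fam162a overlapped in their sample values, as did Vegfa and Hilpda, Ankrd37 and Ndrg1, and Ndrg1 and Mxi1, so the order within these pairs is not set by 3 samples. In S1P-treated cells the order differed in 1 place, with Ndrg1 (17.2 ± 1.39 CPM per kb) above Ankrd37 (10.2 ± 0.521 CPM per kb) with no overlap. Vegfa (19.0 ± 1.38) and Hilpda (17.2 ± 2.64 CPM per kb) overlapped there, as did Hilpda and Ndrg1. Lengths are those of all annotated exons together, which lowers the level of a gene with long rarely used exons.

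Most other HIF targets outside glycolysis were also higher with S1P. Of 48 such genes listed from general knowledge with results of these samples known, 40 were tested. For 3 of these, Stc1, Selenbp1 and Tmem45a, the S1P-treated samples alone all reached the minimum, so that a rise was built into their entry, and all 3 are among the genes called higher. Of the 40, 31 were called higher, 1 lower and 8 were not called, with a median log2FC of 0.83, against 12.7% of all tested genes called higher and 10.4% called lower. With all genes of this kind left out, a count made after seeing the data, 28 of 37 rose and 1 fell, with a median log2FC of 0.71, against 1542 higher and 1384 lower of the 12802 tested genes that remained. Of the 3 genes with the highest log2FC, P4ha2 alone was over the minimum in every sample, and no rank is read for Stc1 and Selenbp1. Stc1, which encodes the secreted hormone stanniocalcin-1, had 2, 5 and 2 counts in vehicle-treated and 127, 80 and 68 counts in S1P-treated samples. P4ha2, a subunit of the collagen prolyl hydroxylase, rose from 2.90 ± 1.33 to 17.1 ± 0.80 CPM (SD, n = 3 each; log2FC 2.55, edgeR adjusted p = 4.15e-05). Selenbp1 had 17, 25 and 10 counts in vehicle-treated and 127, 44 and 54 counts in S1P-treated samples. The gene that fell was Angptl4, which encodes an inhibitor of lipoprotein lipase, from 11.7 ± 1.38 to 7.29 ± 0.562 CPM (SD, n = 3 each; log2FC -0.67, edgeR adjusted p = 0.00401). Epo and Ccn2 had 0 counts in all 6 samples, and Car9, Nos2 and Lox were among the genes with too few counts for a test.

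Of 20 glycolytic HIF targets, all tested, 18 rose, against 12.7% of all tested genes, and none fell, with a median log2FC of 0.65. Aldoc (2.66), Slc2a3 (2.02) and Slc2a1 (0.95) had the largest rises. Ldha (0.24) and Pgam1 (-0.06) were not called, and without S1P-treated replicate 2 Ldha was called (log2FC 0.32, edgeR adjusted p = 0.0079). The difference between this list and the 10 genes was not tested.

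Among 16 HIF subunits and regulators, 15 were tested, of which 5 rose, against 12.7% of all tested genes, and 1 fell, against 10.4%. Hif1a, which encodes HIF-1α, rose from 506 ± 13.7 to 648 ± 49.1 CPM (SD, n = 3 each; log2FC 0.36, edgeR adjusted p = 0.00474). Epas1, which encodes HIF-2α, rose from 2.55 ± 1.11 to 5.55 ± 0.266 CPM (log2FC 1.14, edgeR adjusted p = 0.00695), and Hif3a by a log2FC of 1.27. Arnt had a log2FC of 0.14 (edgeR adjusted p = 0.216). The prolyl hydroxylase genes Egln3 and Egln1, which are HIF targets themselves and belong to both lists, rose by 1.38 and 0.98. Egln2 fell by a log2FC of 0.31 (edgeR adjusted p = 0.0493), a call that was lost in several alternatives, among them DESeq2 (adjusted p = 0.0617). Messenger RNA gives no measure of HIF protein.

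**Figure D5:**
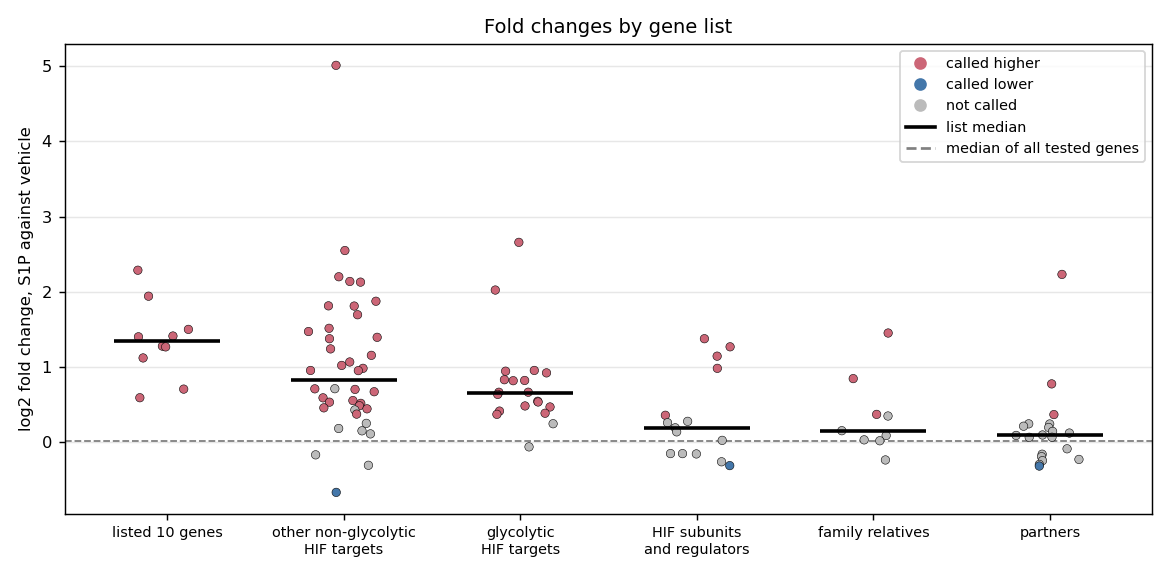
Log2 fold changes of S1P-treated against vehicle-treated cells for the tested genes of 6 lists, with a bar at each median and a dashed line at the median of all tested genes, 0.01. The medians are 1.34 for the 10 genes, 0.83 for other non-glycolytic and 0.65 for glycolytic HIF targets, and 0.19, 0.15 and 0.09 for regulators, family relatives and partners.

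Of 17 family relatives of the 10 genes, 9 were tested, and 3 of these rose (Ndrg2, Mxd1 and Mxd4), against 12.7% of all tested genes, and none fell, against 10.4%. Of the 20 tested partners, 3 were called higher (Calcrl, P4hb and Ramp3), against 12.7% of all tested genes, and 1 was called lower, against 10.4%. Nothing is read from the call of Ramp3, which entered the fit only through its S1P-treated samples. The partner called lower was Mlx (log2FC -0.32, edgeR adjusted p = 0.0112), a call lost without vehicle-treated replicate 1 (edgeR adjusted p = 0.0562).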

How the data were processed

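The RNA-seq count table covers 3 cultures of CD8+ T cells given S1P and 3 given vehicle. Per the labels and the methods of the study, strand-specific libraries of polyadenylated RNA were sequenced as read pairs, trimmed with Trim Galore, aligned with STAR and counted per gene with featureCounts. The processing notes of the submitters name GRCm39. The annotation release and strand setting are not given in the sources used here. The deposited values are raw counts, as the authors made them.

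Counts were scaled with TMM and tested with the quasi-likelihood test of edgeR 4.0.16 (R 4.3.3) after filterByExpr, modelling treatment alone, and p-values were adjusted by Benjamini-Hochberg across 13299 genes. Calls needed an adjusted p within 0.05 and a log2FC of 0.3 or more in either direction. CPM are counts relative to the scaled library size. Symbols (56323 of 56941 genes), positions and exon lengths came from GENCODE vM39, promoter windows from RefSeq. The models were tested on simulated data. The alternatives were DESeq2 1.42.0, limma-voom (limma 3.58.1), other scalings and filters, a stricter fold change, a replicate block and the fit without each library.

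The 10 genes and all lists were chosen with earlier results of these data known. Named from each list were the 3 largest rises and falls among called genes, Hif1a, Epas1 and Arnt, and the closest relative of each of the 10. Other names were chosen after their values were seen. P-values set the difference between the groups against the spread among samples within each group. The labels do not describe the sources of these samples further.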

Additional observations from a re-analysis of the deposited data

How the results depend on the processing

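The 10 genes had the same direction and call in all 139 of their fits under the other tools, scalings and filters, the replicate block and the fits without 1 library, which supports nothing, since they were chosen by this difference. Adm could not be fitted where at least 10 counts were required in every sample. Their count stayed at 10 in the fits without 1 library, and requiring a log2FC of 1 or more left 8. That threshold left 383 higher and 82 lower genes of all tested, 17 higher and 0 lower of the other non-glycolytic HIF targets, 2 of the glycolytic ones, 3 higher and 0 lower of the regulators, 1 of the relatives, and 1 higher and 0 lower of the partners. The lower regulator (Egln2) was lost, leaving 0, with DESeq2, limma-voom, upper quartile factors, at least 10 counts in every sample and the replicate block. The count of lower regulators was 0 to 1 without 1 library. The lower partner (Mlx) was lost, leaving 0, with upper quartile factors, and without 1 library this count was 0 to 2. Over all tested genes, 1158 to 1736 were called higher and 961 to 1492 lower without 1 library. In the same fits, higher glycolytic calls ranged from 13 (without vehicle-treated replicate 3) to 19 (without S1P-treated replicate 2). Those of the other non-glycolytic targets ranged from 30 to 31 without 1 library. They numbered 33 without a filter and 29 with at least 10 counts in every sample. The log2FC of Pgam1 ranged from -0.18 to 0.093 without 1 library, positive without S1P-treated replicate 2 and, at 0.024, without vehicle-treated replicate 2. That of Mycn, with 13 counts or fewer in every sample, was -0.70 with limma-voom and negative in several other fits. Neither gene was called. The cause of these changes was not tested. Without a filter the median over all tested genes was 0.16 in place of 0.01. Same-numbered samples had deviations from their group means that correlated at 0.12, -0.0060 and 0.048. These values cannot settle whether same-numbered samples came from the same mouse, which the labels do not say. With the replicate block, 1697 genes were called higher and 1423 lower, 10 of them among the 10 genes. Depth limits Adm, Ramp3 and Stc1, which had 15 counts or fewer in every vehicle-treated sample.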
